A study of Mus musculus with 7 samples.

Results

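The Aurora kinases, the other subunits of the chromosomal passenger complex, Polo-like kinase 1 and the activators Tpx2 and Bora were followed through mouse oocyte maturation. The 9 genes Aurka, Aurkb, Aurkc, Incenp, Birc5, Cdca8, Plk1, Tpx2 and Bora were picked by symbol from the 25912 entries listed for each library, and each symbol was found once. The libraries were made by Smart-seq2, a full-length RNA-seq method for few cells, from 10 oocytes each. The GV group (2 libraries) held oocytes still arrested at the germinal vesicle stage, for which the labels list no treatment. The methods speak of control GV oocytes given DMSO, without saying whether these libraries were among them. The MII group with DMSO (3 libraries, also called control MII below) held oocytes matured in culture to the second meiotic arrest with the solvent. The MII group with BYBX (2 libraries) held oocytes labelled MII and cultured with BYBX, a ligand that binds and stabilises RNA G-quadruplexes. The paper reports that BYBX lowered polar body emission and that treated oocytes reaching MII had abnormal spindles and misaligned chromosomes. Whether the stage of these libraries differed from control MII was not tested. According to the methods, all oocytes came from 4-week-old C57BL/6 females primed with gonadotropin. The dose of BYBX and the culture time of these libraries are not given in the labels. Nothing in the labels says that libraries of one group came from separate animals, so the p-values below measure the spread between these libraries, which may be technical.

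Oocytes build their spindles without centriolar centrosomes, and Aurora and Polo-like kinases take over much of that work. Aurora A acts at microtubule organising centres and spindle poles and is switched on by Tpx2. Bora helps Aurora A to activate Plk1, which then acts at poles, kinetochores and the midzone. The passenger complex, in which a catalytic subunit (Aurora B, or Aurora C in germ cells) is held by Incenp and guided to centromeres by survivin (Birc5) and borealin (Cdca8), corrects faulty attachments between chromosomes and microtubules. Fully grown oocytes do not transcribe, and their stored maternal transcripts are translated, deadenylated or degraded during maturation.

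The deposited value is FPKM, fragments normalised to the length of the transcript and to the mapped reads, which the authors scaled to an ERCC spike-in and, between batches, to GV libraries. The summed FPKM of a library was 402113 to 489569 in GV, 109732 to 127254 in MII with DMSO and 201482 to 246710 in MII with BYBX. Most transcripts therefore lay lower in control MII than in GV, and each comparison below is read against all tested entries. The first-strand reaction was primed with oligo-dT, so a level is that of polyadenylated RNA. Each library pooled 10 oocytes, so a lower level in every oocyte and a loss from some of them cannot be told apart. The labelled cell type carried its markers: 12 of 12 oocyte markers reached 1 FPKM, with summed levels of 11548 to 15109 FPKM in GV, 1916 to 2130 FPKM in MII with DMSO and 5943 to 6286 FPKM in MII with BYBX. Of 14 granulosa and cumulus markers 4 reached 1 FPKM in any library and Ptx3 was listed at 0 in all 7, and their summed level was 9.87 to 17.6 FPKM in GV, 2.37 to 2.67 FPKM in MII with DMSO and 4.28 to 4.90 FPKM in MII with BYBX. The 6 erythrocyte marker names summed to at most 1.20 FPKM in any library. The part of other cells in the results was not tested.

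Because the reads follow poly(A) tails, the ends of the 9 transcripts are shown for what they hold. One protein-coding transcript a gene was taken from GENCODE vM21 on GRCm38 (the assembly called mm10). Its last 100 bases were searched on the transcript strand for the cytoplasmic polyadenylation element, spelled TTTTAT or TTTTAAT, which CPEB proteins bind in oocytes, and for the polyadenylation signal, spelled AATAAA or ATTAAA. The element stood in Aurka, Aurkb and Aurkc and in none of the other 6 windows, against 20.9% of the 8268 tested genes whose 3′UTR has at least 100 bases. The signal stood in 8 of 9 windows, all but that of Aurka, against 82.1% of those genes. The windows that hold the element in the 3 Aurora kinases follow first, and then the signals of Birc5 and Cdca8, the members with the largest and the smallest difference between the MII groups. Capitals mark the element and the signal, and the letters run 5′ to 3′ as DNA.
Aurka, chr2:172356228-172356257, minus strand: attTTTTATgttggagttctgtcatgtatg
Aurkb, chr11:69051625-69051654, plus strand: acaTTTTATAATAAAgtcttaaatgtttca
Aurkc, chr7:7003045-7003074, plus strand: ctcTTTTATgaagtgatgttaATTAAAact
Birc5, chr11:117855698-117855727, plus strand: acggggtaacggAATAAAatcacttgaaaa
Cdca8, chr4:124918478-124918507, minus strand: cttgctgttttcAATAAAtcttagtttgcc

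In Aurkb the element runs straight into the signal. No predicted G-quadruplex, defined as 4 stretches of 3 or more G separated by loops of 1 to 7 bases, was found in any of the 9 transcripts. Such a motif was found in 17.8% of the 8735 matched transcripts, and among transcripts within 20% of a member's length the share was between 6.6% (Birc5, 947 bases) and 22.5% (Tpx2, 4365 bases). With stretches of 2 or more G every member held at least 1 motif, as did 97.1% of all. These are matches of letters and not binding sites, and a missing match says only that the letters are not in the sequence searched. The exons of Plk1 share 156 bases with Gm44985 on the opposite strand, and whether the counting used the strand is not given in the sources used here, so reads of the pair cannot be told apart there.

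The 9 transcripts covered a wide range of levels (plot of levels by library). In GV, Birc5 stood first with 1721 ± 88.4 FPKM (SD, n = 2). Aurka (254 ± 66.0 FPKM) and Cdca8 (252 ± 46.1 FPKM) followed and could not be separated, since their libraries overlapped. Plk1 came next with 130 ± 55.3 FPKM and lay apart from its neighbours. Tpx2, Bora, Aurkb and Incenp formed a chain from 53.4 down to 27.9 FPKM in which each gene overlapped the next. Aurkc stood last with 2.93 ± 0.216 FPKM, below every library of Incenp. In MII with DMSO the order differed. Cdca8 (119 ± 6.72 FPKM, n = 3) lay above Birc5 (82.7 ± 16.8 FPKM) in all libraries, and Aurka and Tpx2 overlapped at 32.8 and 31.0 FPKM. Tpx2 lay above Plk1 (20.9 FPKM) without overlap, the reverse of GV, though their nearest libraries stood at 29.8 and 29.2 FPKM. Aurkc was again last at 0.972 ± 0.304 FPKM. In MII with BYBX, Birc5 was first again at 585 ± 199 FPKM (n = 2), followed by Cdca8 and then Aurka, and Aurkb and Incenp were the only neighbours that overlapped.

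**Figure D1:**
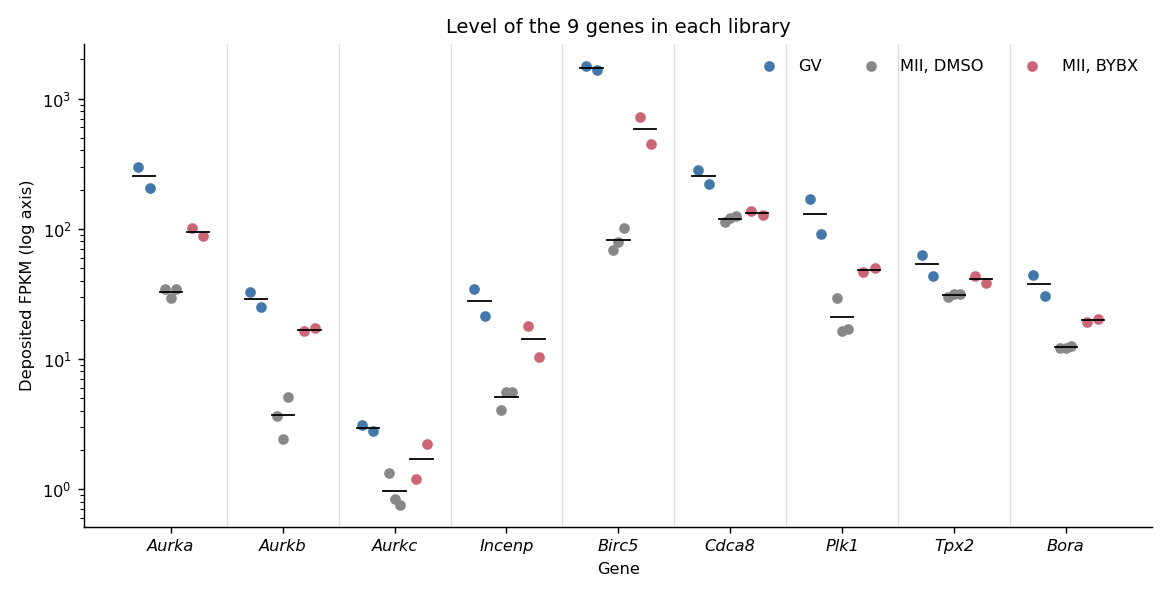
Deposited FPKM of each of the 9 genes (horizontal axis) on a log axis, 1 point a library and a black line at the group mean, for GV (2 libraries), MII with DMSO (3) and MII with BYBX (2). GV lies highest for every gene, Birc5 spans 68.3 to 1783 FPKM, and the BYBX libraries of Cdca8 (127 and 136 FPKM) sit just above those with DMSO (112 to 125 FPKM).

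The first comparison asked how these transcripts changed over control maturation. All 9 fell from GV to MII with DMSO at a limma adjusted p (Benjamini-Hochberg) under 0.05, as did 88.3% of the 9202 tested entries, so the count itself does not set the members apart, and none was higher (0.272% of entries were). No GV library overlapped an MII library with DMSO for any of the 9, again the common case, since 92.5% of all entries were lower without overlap. The sizes differed widely, from 20.8-fold for Birc5 to 1.72-fold for Tpx2. The median log2 difference of the members was -2.22, beside -1.83 over all entries.

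In the Aurora A branch, Aurka was at 300.2 and 207 FPKM in GV and at 34.7, 29.3 and 34.3 FPKM in MII with DMSO. The MII libraries were close together and all far below GV. The fall was 7.73-fold, or -2.89 on the log2(FPKM + 1) scale (95% interval -3.45 to -2.34, limma adjusted p = 1.23e-07). Its activator Tpx2, which also drives microtubule nucleation around chromosomes, was at 63.2 and 43.7 FPKM in GV and at 29.8, 31.7 and 31.5 FPKM in MII with DMSO. The groups lay apart but near each other, and the log2 difference was -0.74 (95% interval -1.29 to -0.20, limma adjusted p = 0.0139). Without the first GV library it was -0.48 and no longer called (limma adjusted p = 0.106). A larger log2 fall than that of Tpx2 was seen in 83.0% of all entries, and a larger one than that of Aurka in 25.6%.

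In the passenger complex the fall of Birc5, the survivin subunit that reads a phosphorylated histone mark at centromeres, was the deepest of the 9. It was at 1783 and 1658 FPKM in GV and at 68.3, 78.5 and 101 FPKM in MII with DMSO, a log2 difference of -4.38 (95% interval -4.97 to -3.79, limma adjusted p = 3.78e-09). A larger log2 fall was seen in 7.6% of all entries. Cdca8, whose product borealin sits beside survivin in the same module, was at 285 and 220 FPKM in GV and at 112, 121 and 125 FPKM in MII with DMSO. Its 2.11-fold fall was among the smallest of the 9 (log2 difference -1.06, 95% interval -1.58 to -0.54, limma adjusted p = 0.000926). The scaffold Incenp went from 34.7 and 21.2 FPKM to 4.08, 5.54 and 5.57 FPKM, a log2 difference of -2.22 (limma adjusted p = 7.52e-06). Of the catalytic subunits, Aurkb was at 32.6 and 24.9 FPKM in GV and at 3.65, 2.40 and 5.06 FPKM in MII with DMSO. It fell by 2.69 on the log2 scale (95% interval -3.28 to -2.09, limma adjusted p = 5.25e-07). Aurkc, the germ-cell paralog, was scarce throughout, at 3.08 and 2.77 FPKM in GV and at 1.32, 0.840 and 0.756 FPKM in MII with DMSO. Its log2 difference of -1.0 (95% interval -1.48 to -0.53, limma adjusted p = 0.000679) understates a ratio of means of 3.01, since 1 was added to values of this size.

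On the Polo-like kinase branch, Plk1 was at 169 and 90.7 FPKM in GV and at 29.2, 16.2 and 17.1 FPKM in MII with DMSO. The first MII library stood above the other two, and both GV libraries lay well above all 3. The log2 difference was -2.56 (95% interval -3.26 to -1.87, limma adjusted p = 4.31e-06). Bora, the cofactor that opens Plk1 to Aurora A, was at 44.4 and 30.4 FPKM in GV and at 12.1, 12.2 and 12.7 FPKM in MII with DMSO, and fell by 1.5 on the log2 scale (limma adjusted p = 6.23e-05).

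The second comparison asked what BYBX changed in MII oocytes, and it shares its control libraries with the first. Of the 9 genes 6 were higher with BYBX than with DMSO (Birc5, Aurkb, Aurka, Incenp, Plk1 and Bora) and none was lower, where 65.2% of all entries were called higher and 0.0326% lower. Both BYBX libraries lay above all 3 with DMSO for 8 of 9, all but Aurkc, beside 79.0% of all entries. The median log2 difference of the members was 1.21 and that over all entries 0.84. Here too the median over all entries depended on the setting. It was 1.29 with 0.1 added in place of 1, and 1.07 with a filter of 5 FPKM.

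Birc5 rose most, to 725 and 444 FPKM with BYBX, 7.07-fold above the mean with DMSO (log2 difference 2.78, 95% interval 2.19 to 3.37, limma adjusted p = 1.44e-06). The BYBX libraries differed from each other, yet the lower one still lay far above the highest with DMSO (101 FPKM). Aurkb stood at 16.5 and 17.2 FPKM with BYBX, where no library with DMSO passed 5.06 FPKM, and it rose by 1.96 on the log2 scale (95% interval 1.36 to 2.56, limma adjusted p = 3.55e-05). Aurka reached 102 and 88.7 FPKM (log2 difference 1.51, 95% interval 0.95 to 2.07, limma adjusted p = 0.000185). Incenp was at 18.0 and 10.3 FPKM, both above the control libraries, with a log2 difference of 1.28 (limma adjusted p = 0.00192). Plk1 was at 46.3 and 49.7 FPKM, a log2 difference of 1.21 (95% interval 0.52 to 1.91, limma adjusted p = 0.00491). Bora was at 19.2 and 20.4 FPKM and rose by 0.64 (95% interval 0.10 to 1.18, limma adjusted p = 0.0364). The call of Bora was lost when any one of the 5 MII libraries was left out, with limma adjusted p between 0.0664 and 0.134, while its difference stayed between 0.60 and 0.68.

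The other three members were not called between the MII groups. Cdca8 was at 136 and 127 FPKM with BYBX, next to 112 to 125 FPKM with DMSO. Its log2 difference of 0.14 had a 95% interval from -0.38 to 0.66 (limma adjusted p = 0.620), and only 7.1% of all entries had a lower difference. Without the first BYBX library it was 0.084. Tpx2 was at 43.6 and 38.2 FPKM, all above the 29.8 to 31.7 FPKM with DMSO, with a log2 difference of 0.39 and an interval from -0.16 to 0.93 (limma adjusted p = 0.191). Aurkc was at 1.20 and 2.20 FPKM, and the first of these lay within the range with DMSO. Its difference was 0.44 with an interval from -0.033 to 0.91 (limma adjusted p = 0.0928), and it was 0.71 and called without that first BYBX library (limma adjusted p = 0.0210) but 0.17 without the second (limma adjusted p = 0.539). These intervals leave room for rises of the size seen in Bora.

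**Figure D2:**
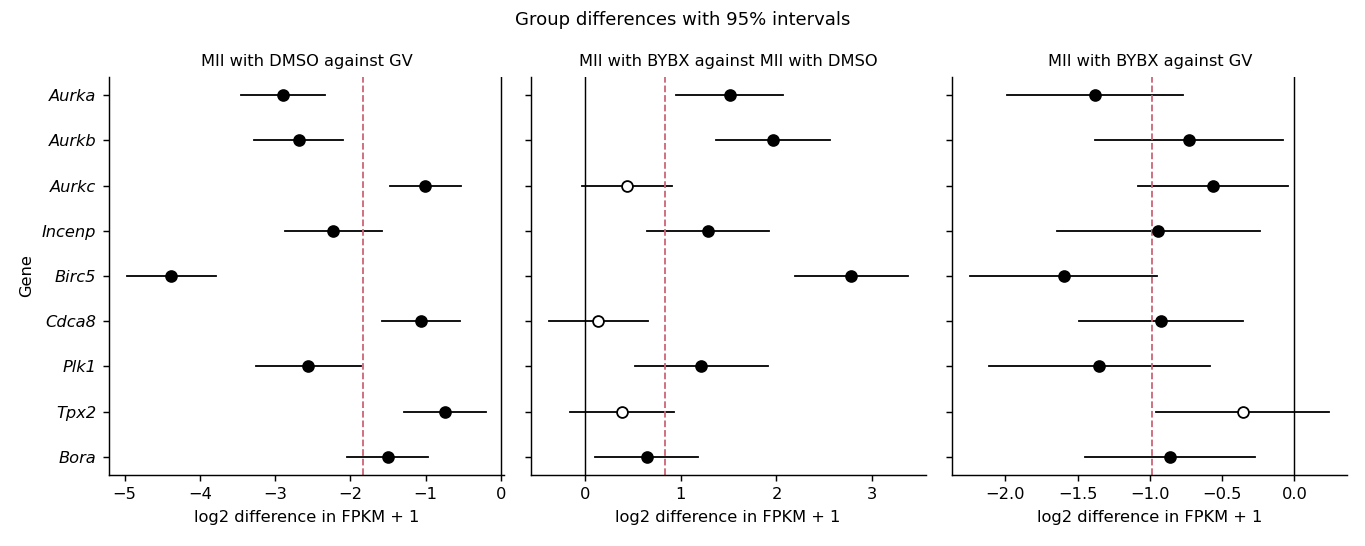
Difference in mean log2(FPKM + 1) for each gene in the 3 comparisons, with 95% intervals from limma; filled points have an adjusted p under 0.05, open points do not, the black line is at 0 and the dashed line is the median over all 9202 entries. Birc5 lies farthest from 0 in every panel, and Cdca8, Tpx2 and Aurkc are open in the comparison of the MII groups.

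The third comparison, BYBX-treated MII against GV, asked how much of the difference between stages remained with the ligand, and it shares libraries with both others. The members were lower than in GV in 8 of 9 cases by limma, where 69.2% of all entries were, and none was higher (0.315% of entries). In all 9 the groups did not overlap, as in 82.3% of entries. For Tpx2 they almost touched, at 43.68 FPKM in the second GV library and 43.63 FPKM in the first with BYBX. Birc5 (-1.60, limma adjusted p = 0.000459), Aurka (-1.38, limma adjusted p = 0.000820) and Plk1 (-1.35, limma adjusted p = 0.00429) had the largest log2 differences. Incenp, Cdca8 and Bora followed at -0.94, -0.93 and -0.86. Aurkb, at -0.73 (limma adjusted p = 0.0455), and Aurkc, at -0.56 (limma adjusted p = 0.0498), passed narrowly. Aurkc lost the call when any library other than the second with BYBX was left out, and its difference was -0.29 without the first BYBX library and -0.84 without the second. Aurkb lost it when any GV or BYBX library was left out. Tpx2 did not pass, with -0.36 (95% interval -0.95 to 0.24, limma adjusted p = 0.264), and its difference was -0.095 without the first GV library and -0.62 without the second. The members' median of -0.93 was near the -0.99 over all entries. Aurka, Birc5 and Cdca8 kept the call whichever library was left out. Without the first GV library the count was 3, since Aurkb, Aurkc, Incenp, Plk1 and Bora were lost. Without the first BYBX library it was 5, since Aurkb, Aurkc and Bora were lost, and Aurkb, Aurkc and Incenp also lost the call when no filter on low levels was used. Incenp was at -0.57 and not called without the second BYBX library, and at -0.60 without the first GV library.

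The level of the whole library weighs on all of this, so the members were also set against the rest of their own library. With every library scaled to the same total FPKM, 3 members were lower in control MII than in GV (Aurka, Aurkb and Birc5) and 2 were higher (Cdca8 and Tpx2), beside 49.5% and 23.3% of all entries. Between the MII groups on that scale Aurka, Aurkb and Birc5 were higher with BYBX and Cdca8 and Tpx2 lower, beside 39.9% and 8.22% of entries, and no member was called against GV (0 higher and 0 lower, where 5.30% and 13.3% of entries were). With each library centred on its median, Aurka and Birc5 were lower and Aurkc, Cdca8, Tpx2 and Bora higher in control MII than in GV, beside 26.7% and 48.8% of entries. Aurkb and Birc5 were then higher with BYBX than with DMSO, the same 4 genes were lower, beside 18.4% and 43.9%, and Tpx2 alone was called against GV, where it was higher (15.2% of entries higher, 13.6% lower). Thus the signs of Aurkc, Cdca8, Tpx2 and Bora in the first 2 comparisons turned on both other scales, while those of Birc5, Aurka and Aurkb did not, and Incenp and Plk1 turned on the centred scale in 1 of them each. For Aurkc the centred sign in control MII against GV was fixed in advance by its low level, 3.08 and 2.77 FPKM in GV. With 1 added before centring, even its complete absence from control MII would have come out as higher. Birc5 differed between the MII groups by 1.90 at the same total and by 1.51 after centring, and Cdca8 by -0.75 and -1.14.

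**Figure D3:**
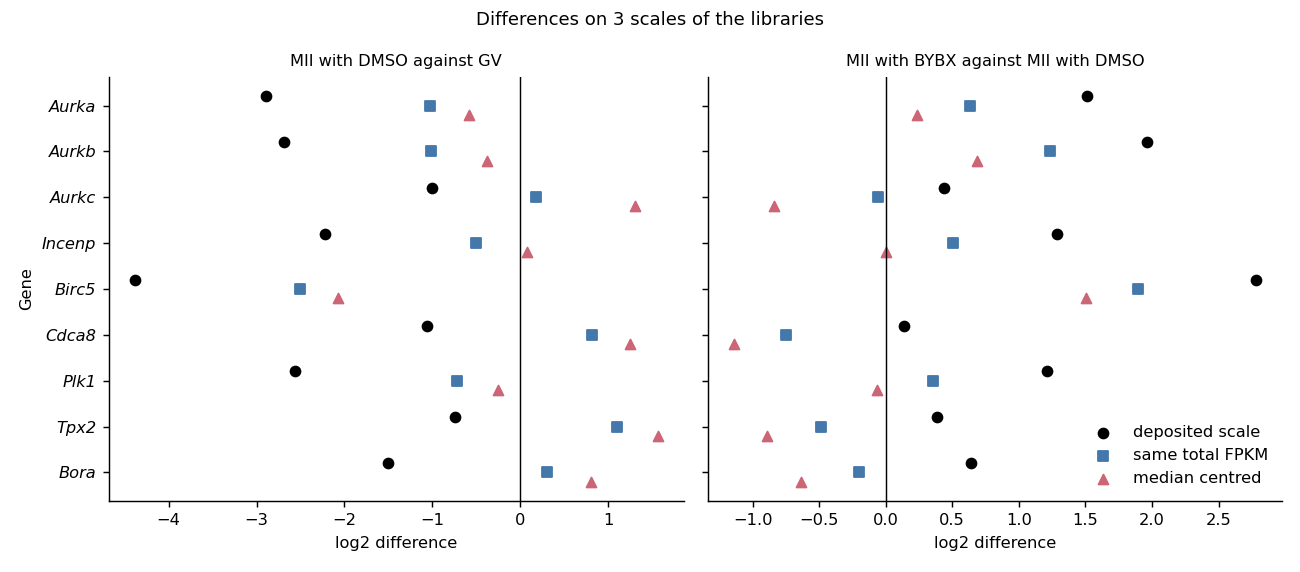
Log2 difference of each gene in MII with DMSO against GV (left) and MII with BYBX against MII with DMSO (right) on the deposited scale (circles), with every library at the same total FPKM (squares) and with every library centred on its median (triangles); the line is at 0. Birc5, Aurka and Aurkb stay on one side of 0 in each panel, and Cdca8, Tpx2, Bora and Aurkc cross it.

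Ranks within a library do not depend on its scale. The rank used here is the percentage of the 9202 tested entries that lay below the gene in the same library. Tpx2 ranked at 83.3 and 80.9% in GV, at 93.5, 93.0 and 92.8% in MII with DMSO and at 88.8 and 89.6% in MII with BYBX, 3 groups that did not overlap. Aurkc ranked at 10.4 and 13.4% in GV and at 45.7, 34.9 and 31.0% in MII with DMSO, while its BYBX libraries, at 11.2 and 26.5%, lay on either side of GV's upper value. Bora had a mean rank of 75.4% in GV, 84.3% with DMSO and 78.4% with BYBX. The abundant members stayed near the top: Birc5 had means of 99.8, 97.6 and 99.5% in GV, MII with DMSO and MII with BYBX, Cdca8 of 97.1, 98.5 and 97.4% and Aurka of 97.0, 93.5 and 96.1%. Aurkb ranked higher in both BYBX libraries (73.5 and 77.7%) than in any other library, of which the highest was at 70.2%. Incenp and Plk1 overlapped between all groups. Among all listed entries the differences from GV to MII with DMSO were smaller, 8.92 points for Aurkc and 3.88 for Tpx2, and kept their direction.

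**Figure D4:**
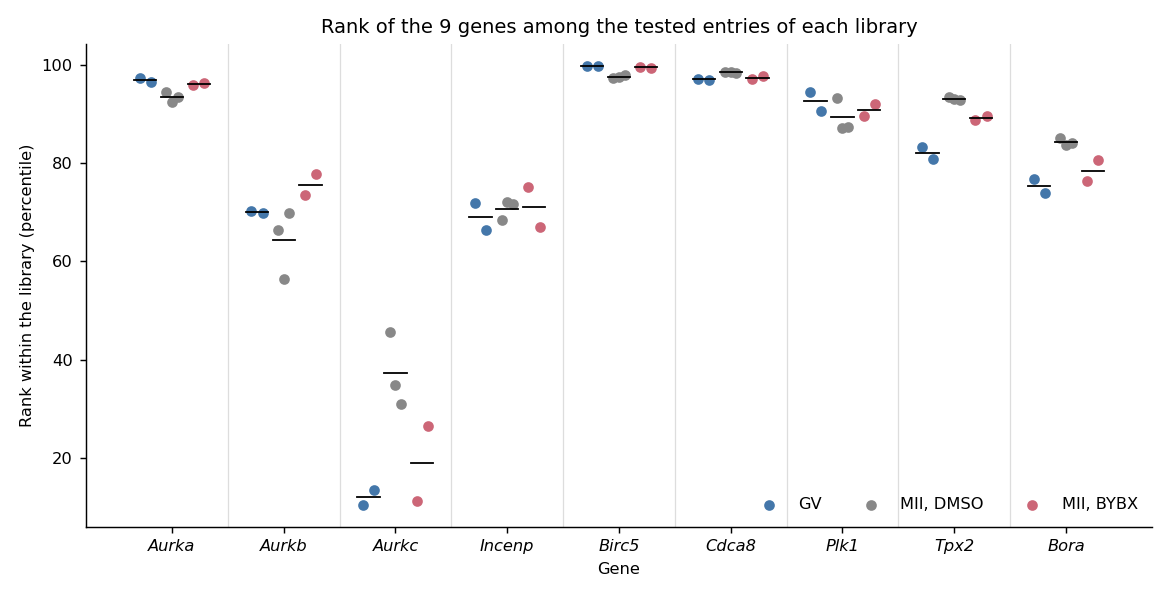
Rank of each gene in each library, as the percentage of 9202 tested entries with a lower FPKM (1 point a library, black line at the group mean). Tpx2 and Aurkc rank higher in control MII than in GV, whereas Birc5 and Aurka stay at or above 92.4%.

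The balance between partners was compared within each library. The ratio of Aurka to Tpx2 was 4.75 and 4.73 in GV, 1.16, 0.925 and 1.09 in MII with DMSO and 2.33 and 2.32 in MII with BYBX, so that each group lay apart and its libraries close together. On the log2 scale the ratio differed by -2.15 between MII with DMSO and GV (exact two-sided permutation test, p = 0.1) and by 1.12 between the MII groups (exact permutation p = 0.1), and p = 0.1 is the smallest that 2 libraries against 3 can give. Plk1 to Bora was 3.81 and 2.98 in GV, 2.42, 1.33 and 1.35 with DMSO and 2.41 and 2.44 with BYBX. For this pair the first library with DMSO matched the BYBX libraries. Aurkc to Aurkb, the germ-cell over the somatic catalytic subunit, was 0.0946 and 0.111 in GV, 0.361, 0.349 and 0.149 with DMSO and 0.0728 and 0.128 with BYBX. Aurkb thus outweighed Aurkc in all 7 libraries, least in MII with DMSO, and BYBX and GV overlapped (exact permutation p = 0.667). In the log2 ratios of Aurkb or Aurkc to Incenp and of Aurka to Aurkb, computed with 1 added to each level, the MII groups overlapped. As plain ratios they overlapped only for Aurkc to Incenp. Aurkb to Incenp was 0.896, 0.434 and 0.909 with DMSO and 0.915 and 1.67 with BYBX. Aurka to Aurkb was 9.49, 12.2 and 6.79 with DMSO and 6.18 and 5.16 with BYBX. Of 18 such tests none could reach 0.05, and the smallest Benjamini-Hochberg adjusted value of these exact permutation tests was 0.36.

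The make-up of the passenger complex at the transcript level followed from its 2 largest members. Birc5 made up 83.4 and 86.1% of the summed FPKM of the 5 subunits in GV, 36.1, 37.7 and 42.5% in MII with DMSO and 80.8 and 74.0% in MII with BYBX. Cdca8 made up 12.4 ± 1.36% in GV (SD, n = 2), 56.7 ± 3.45% in MII with DMSO (n = 3) and 18.1 ± 4.17% in MII with BYBX (n = 2). The BYBX libraries thus lay near GV and apart from DMSO for both genes. When Birc5 was left out of the sum, a choice made after the values were seen, Cdca8 still differed, with 81.0% in GV, 92.5% with DMSO and 80.1% with BYBX. Aurkb took 9.22, 2.86 and 10.3% of that smaller sum. Shares within one sum are tied to each other and are given without a test.

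**Figure D5:**
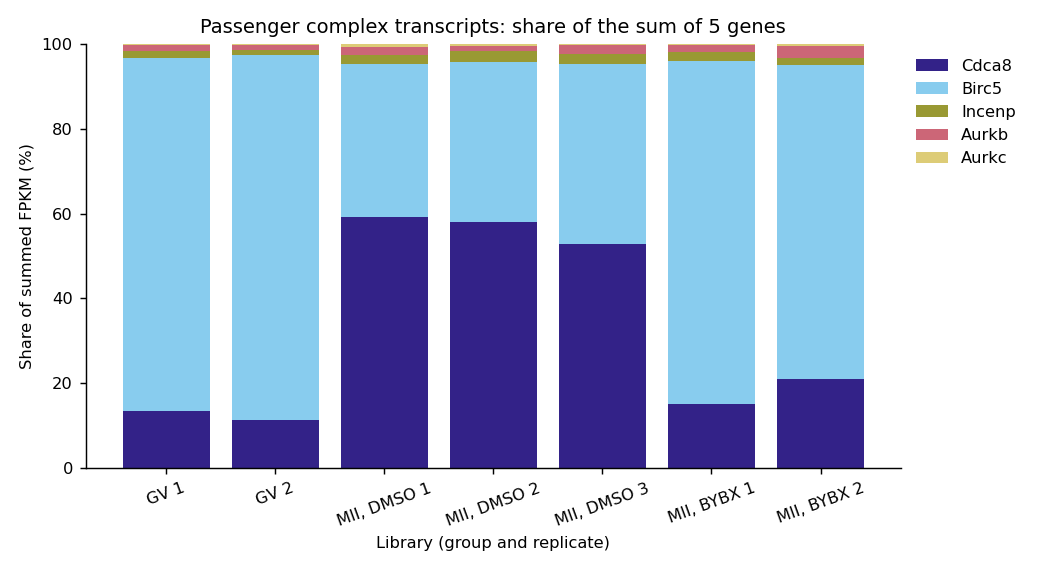
Share of each subunit's FPKM in the summed FPKM of Cdca8, Birc5, Incenp, Aurkb and Aurkc, 1 stacked bar a library and without error bars. Birc5 fills 74.0 to 86.1% of the bar in GV and MII with BYBX and 36.1 to 42.5% in MII with DMSO, where Cdca8 is the largest part.

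For each gene the position of the BYBX level between the other groups can be given on a line where 0 is the mean with DMSO and 1 the mean in GV. Over the 8127 entries that were lower in control MII than in GV, the median position was 0.288. Cdca8 stood at 0.0895, with 0.126 and 0.0532 in its libraries, and 3.5% of those entries had a lower position. Aurkb stood at 0.524, with 0.509 and 0.538, above 90.5% of them. Plk1, Aurka, Bora and Birc5 lay between 0.249 and 0.306, near the median. Tpx2 (0.442), Incenp (0.397) and Aurkc (0.373) had positions that differed widely between their BYBX libraries, for Aurkc 0.115 and 0.630. At the same total FPKM, an alternative chosen after the values were seen, Aurkb was at 1.35, Incenp at 1.0, Birc5 at 0.590, Aurka at 0.525 and Plk1 at 0.369, and the other members had no decrease to divide by. On that scale the decreases of Incenp (-0.51, limma adjusted p = 0.0668) and Plk1 (-0.72, limma adjusted p = 0.0689) were not called. Their positions thus divide by an uncertain difference, and no median over entries is given on this scale.

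Partners outside the 9 were read from 4 lists of 20 genes. Of the Aurora A, spindle pole and microtubule assembly list 19 were tested, all but Ajuba, and 17 were lower in control MII than in GV, 12 higher with BYBX than in control MII and 13 lower with BYBX than in GV, beside 88.3%, 65.2% and 69.2% of all entries. Its largest changes were those of Tacc3, a spindle protein that Aurora A phosphorylates, and Kpna2, an importin that holds Tpx2 inactive. Tacc3 fell from 171 ± 59.7 FPKM in GV to 1.68 ± 0.478 FPKM with DMSO and was at 34.8 ± 7.03 FPKM with BYBX (log2 differences -5.97, then 3.74 between the MII groups, limma adjusted p = 5.15e-10 and 1.75e-07). Kpna2 went from 616 FPKM to 15.3 FPKM with DMSO and 162 FPKM with BYBX. Dlgap5, a microtubule-binding Aurora A target, was at 79.9 FPKM in GV and 18.8 FPKM with BYBX, a log2 difference of -1.97.

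In the list of passenger complex recruitment, kinetochore and midzone genes all 20 were tested, of which 18 were lower in control MII than in GV, 12 higher with BYBX than in control MII and 11 lower with BYBX than in GV, beside the same 88.3%, 65.2% and 69.2% of all entries. Bub1, the kinase that marks histone H2A to bring the complex to centromeres, fell from 46.0 ± 12.6 to 0.567 ± 0.167 FPKM and was at 10.9 ± 0.282 FPKM with BYBX. Psrc1, a microtubule-binding protein, was at 164 FPKM in GV, 21.3 FPKM with DMSO and 71.4 FPKM with BYBX. The kinetochore genes Mis12 (26.5, 1.68 and 6.71 FPKM in GV, control MII and BYBX-treated MII) and Spc25 (19.7, 1.21 and 4.93 FPKM) lay in the same order. Ndc80 and Sgo2a were not called in any of the 3 comparisons.

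Of the Plk1 partners, targets and polo-like relatives 19 were tested, all but Plk2, and 17 were lower in control MII than in GV, 13 higher with BYBX than in control MII and 12 lower with BYBX than in GV, where 88.3%, 65.2% and 69.2% of all entries were. Fzr1, an activator of the anaphase-promoting complex, was at 113 ± 22.8 FPKM in GV, 2.19 ± 0.451 FPKM with DMSO and 44.3 ± 10.6 FPKM with BYBX. Optn was at 29.6, 0.297 and 6.26 FPKM in the same order of groups, and Wee1, an inhibitory kinase of Cdk1, at 15.3, 0.242 and 3.65 FPKM. The list of phosphatases that oppose these kinases also holds Ensa, Arpp19 and Mastl, which are not phosphatase subunits. Of this list 19 were tested, all but Ppp6r1. In the same order 15 were lower, 12 higher and 13 lower, beside 88.3%, 65.2% and 69.2% of all entries. Ensa, an inhibitor of PP2A once phosphorylated, went from 35.2 FPKM to 0.765 FPKM with DMSO and 14.6 FPKM with BYBX. Ppp2ca, a catalytic subunit of PP2A, was at 28.8, 1.39 and 8.33 FPKM, and Ppp6r2, a regulatory subunit of PP6, at 12, 1.25 and 2.17 FPKM.

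No list gene was called in the opposite direction on the deposited scale. The list medians lay around those of all entries, from -1.71 to -2.24 for MII with DMSO against GV (all entries -1.83), from 0.68 to 1.06 between the MII groups (0.84) and from -0.86 to -1.17 for BYBX against GV (-0.99). At the same total FPKM the lists, in the order above, held 5, 7, 6 and 5 genes higher and 10, 7, 10 and 7 lower in control MII than in GV, beside 23.3% of all entries higher and 49.5% lower.

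For each member the entry with the most similar profile of log2(FPKM + 1) over the 7 libraries was looked up among all tested entries, with Pearson's r as the measure. The 7 libraries fall into 3 groups that differ in total, so r mainly follows the group levels, and no p-value is given. Aurka was closest to P3h1 (r = 0.9995), Aurkb to Snx3 (r = 0.9993) and Aurkc to Tgfbr1 (r = 0.9925). Among the other subunits, Incenp was closest to Myo9b (r = 0.9985), Birc5 to Rbm8a (r = 0.9997) and Cdca8 to Rbm47 (r = 0.9949). Plk1 was closest to I830077J02Rik (r = 0.9991), Tpx2 to Tmem181b-ps (r = 0.9964) and Bora to Wdr62 (r = 0.9999). None of these 9 is a member or stands in the 4 lists.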

How the data were processed

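Per the submitters' processing notes and the methods, reads were trimmed with Trim Galore 0.6.7 and aligned to mm10 with HISAT2 2.2.1, and Cufflinks 2.2.1 computed FPKM on UCSC gene models from uniquely mapped reads. The authors deposited 1 table of FPKM per library, scaled to the ERCC spike-in and to the GV libraries of each batch. The scaling factors and batches are not given in the sources used here, and fragment counts are not in the tables, so the depth is unknown and no counting interval or detection floor can be given. Groups were taken from the sample titles, which read GV, MII and MII+BYBX. DMSO is not in the titles, and the methods name it as the control treatment. Of the 25912 entries, 4 with a missing value were left out.

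The 7 libraries were fitted in 1 model of 3 group means with limma 3.58.1 in R 4.3.3 (lmFit, eBayes with an intensity trend, 4 residual degrees of freedom) on log2(FPKM + 1), over the 9202 entries with a mean of the 3 group means of at least 1 FPKM. Adding 1 understates changes of low genes. A call was a Benjamini-Hochberg adjusted p under 0.05 over all 9202. The limma step was tested on simulated data. Ratios were compared by exact permutation tests (scipy 1.17.1). Sequences came from GENCODE vM21 (GRCm38), with 1 complete coding transcript a gene, and 8735 of 9154 tested gene names (95.4%) were matched. Python 3.11.15 with pandas 2.3.3 was used.

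The members, the lists of partners and the marker lists were chosen with earlier results of these data known. The text names all members, the entry most like each, and in each partner list the pair with the largest rise and the pair with the largest fall among called genes of each comparison. Ndc80, Sgo2a and the untested list genes were named after their values were seen. Alternatives were other scalings, pseudocounts and filters, fits of 2 groups, a replicate block, no trend, a minimum of 2-fold and leaving out each library.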

Additional observations from a re-analysis of the deposited data

How the results depend on the processing

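Pseudocount, intensity trend and fits of only 2 groups moved no count of called members by over 1.5 times. The scale moved them most. Members lower and higher in control MII than in GV were 3 and 2 at the same total FPKM and 2 and 4 after median centring. Those higher and lower in BYBX-treated than control MII were 3 and 2, and 2 and 4. Against GV, those lower with BYBX were 0 on both scales, and 1 was higher after centring. This last count of 8 was 5 without a filter, 3 with a minimum of 2-fold and 3 to 7 when a library was left out. In MII with DMSO against GV, log2 differences turned to 0.18 (Aurkc), 0.81 (Cdca8), 1.10 (Tpx2) and 0.30 (Bora) at the same total, and to 1.30, 1.24, 1.56 and 0.80, and 0.079 for Incenp, after centring. Between the MII groups they turned to -0.058 (Aurkc), -0.75 (Cdca8), -0.49 (Tpx2) and -0.20 (Bora), and to -0.84, -1.14, -0.89 and -0.64, and -0.065 for Plk1. Against GV with BYBX they turned to 0.22 (Aurkb), 0.12 (Aurkc), 0.062 (Cdca8), 0.61 (Tpx2) and 0.10 (Bora), and to 0.30, 0.46, 0.10, 0.67 and 0.16, and 0.084 for Incenp. These turns came when the scaling of the libraries was changed, and what else shaped them was not tested. The turn of Aurkc in control MII against GV after centring was fixed in advance by its low level. With a pseudocount of 0.1 the ratio of Aurkc to Aurkb turned to -0.049 (BYBX against GV) and that of Aurka to Aurkb to 0.045 (DMSO against GV). With a library left out, log2 ratios of BYBX against GV ran from -0.079 to 0.41 (Aurkc to Aurkb), from -0.19 to 0.62 (Aurkb to Incenp) and from -0.27 to 1.02 (Aurkc to Incenp), negative without the second BYBX library, and the cause was not tested.

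The libraries share only a number. Deviations of same-numbered libraries from their group means correlated at 0.49 and 0.28 for DMSO with GV, at -0.60 and -0.35 for BYBX with DMSO and at -0.33 for BYBX with GV. With the replicate number as a block, in which the third library with DMSO has no partner, 9 members were lower in control MII than in GV, 5 higher with BYBX than in control MII and 6 lower with BYBX than in GV. Bora between the MII groups (0.66, limma adjusted p = 0.0967) lost its call. With the numbers of the BYBX libraries exchanged, an alternative added after the data were seen, 8 members were lower than in GV. The depth is unknown, and levels near 1 FPKM, as for Aurkc, are the least certain.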
